A study of Mus musculus with 12 samples.

Results

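The MHC class II and butyrophilin-like locus of the mouse was examined as a window of chromosome 17 from 34390000 to 34690000 in the build mm9. The window was given as holding the class II genes H2-Ab1, H2-Aa and H2-Eb1 and then the butyrophilin-like cluster with Btnl1, Btnl2, Btnl4 and Btnl6. Its members are the merged H3K4me3 regions that overlap it: 14 of the 24352 regions formed from all 8 peak lists. The window was chosen by the peak calls themselves, which also sort its regions into classes, so presence of a peak in enterocytes, adult stem cells or embryonic epithelium is described here and not tested.

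H3K4me3, a histone mark of active and poised promoters, was mapped by chromatin immunoprecipitation and sequencing in small-intestinal epithelium of mice of mixed C57BL/6 CD1 background. There were 2 libraries each of enterocytes, of Lgr5+ intestinal stem cells (ISC), of E14.5 epithelium and of E12.5 epithelium. Both adult groups came from Lgr5EGFP-Cre-ERT males aged 2 months (P60 in the labels), the stem cells sorted for high Lgr5-EGFP and the enterocytes as EpCAM+ cells without CD31 or CD45, and the embryonic cells carried the same surface gate. Whether a library pooled several animals is not given in the sources used here. The labels name no treatment and no mutation other than the reporter. Sequenced depth was between 12821255 tags (enterocyte replicate 1) and 43259380 tags (E14.5 replicate 1), and the lists held between 11111 and 17658 peaks. Each group had 1 input library as the control for both of its lists. The cell types were not checked against marker genes, because no gene annotation of mm9 was used.

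MHC class II molecules are heterodimers of an alpha and a beta chain that present peptides to CD4+ T cells. They are best known from dendritic cells and B cells, and intestinal epithelium also makes them, more so under interferon-gamma. H2-Aa and H2-Ab1 encode the alpha and beta chains of I-A, and H2-Eb1 encodes the beta chain of I-E. Their promoters share conserved boxes, among them the Y box bound by NF-Y, which act together with RFX factors and the coactivator CIITA. Butyrophilin-like proteins are relatives of the B7 family. In the mouse gut, Btnl1 and Btnl6 form a surface complex on villus enterocytes that sustains intraepithelial gamma-delta T cells, and Btnl2 inhibits T cell activation. In the gene order of the GRCm38.p6 table, H2-Ab1 is followed by H2-Aa, H2-Eb1, H2-Eb2, the transcribed pseudogene H2-Ea, Btnl2, Btnl1, Gm15321, BC051142, Btnl4, Btnl5-ps, Gm15331, Btnl6, Btnl7-ps, Gm31560 and Notch4. That table is of another build than the peaks, so no region was assigned to a gene. The names R1 to R14 follow position, from the class II end of the window to the butyrophilin-like end.

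RefSeq promoters (250 bases before to 50 after a start site) were on hand for 6 of the 7 named genes, all but H2-Ab1. They are shown for what the genes of the locus share, and their GRCm38.p6 positions cannot be set beside the mm9 positions of the regions. Capitals mark CTGATTGG, the letters of the Y box, in the class II pair, which hold it 43 (H2-Aa) and 54 (H2-Eb1) bases before the start site.
H2-Aa (GRCm38.p6 chr17:34287774-34288073, - strand): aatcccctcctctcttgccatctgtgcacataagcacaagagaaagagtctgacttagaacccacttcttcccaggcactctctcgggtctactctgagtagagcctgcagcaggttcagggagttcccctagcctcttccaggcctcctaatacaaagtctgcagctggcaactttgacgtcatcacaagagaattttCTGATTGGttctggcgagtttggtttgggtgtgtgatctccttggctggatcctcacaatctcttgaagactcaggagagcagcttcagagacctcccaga
H2-Eb1 (GRCm38.p6 chr17:34305617-34305916, + strand): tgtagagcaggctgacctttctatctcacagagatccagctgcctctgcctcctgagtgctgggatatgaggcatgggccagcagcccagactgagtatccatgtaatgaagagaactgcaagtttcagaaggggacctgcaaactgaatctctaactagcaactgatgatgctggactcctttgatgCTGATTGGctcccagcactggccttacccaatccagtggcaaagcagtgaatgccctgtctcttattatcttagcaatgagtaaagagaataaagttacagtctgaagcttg
On either strand CTGATTGG occurred in 1346 of 32851 promoters in the table (4.1%), and in none of the 4 Btnl promoters. Btnl4 and Btnl6 are shown because their promoters were nearly the same, with 91.1% identity over 302 aligned columns. Every other pair among the 6 promoters had an identity of 50.9% or less. Capitals mark the longest run common to both, of 61 bases.
Btnl4 (GRCm38.p6 chr17:34475888-34476187, - strand): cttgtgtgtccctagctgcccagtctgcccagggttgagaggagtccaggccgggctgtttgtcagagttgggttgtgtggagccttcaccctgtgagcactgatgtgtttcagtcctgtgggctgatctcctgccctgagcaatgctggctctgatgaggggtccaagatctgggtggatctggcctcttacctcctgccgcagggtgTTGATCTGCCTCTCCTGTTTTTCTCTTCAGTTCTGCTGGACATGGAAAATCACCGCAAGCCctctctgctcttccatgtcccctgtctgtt
Btnl6 (GRCm38.p6 chr17:34517303-34517602, - strand): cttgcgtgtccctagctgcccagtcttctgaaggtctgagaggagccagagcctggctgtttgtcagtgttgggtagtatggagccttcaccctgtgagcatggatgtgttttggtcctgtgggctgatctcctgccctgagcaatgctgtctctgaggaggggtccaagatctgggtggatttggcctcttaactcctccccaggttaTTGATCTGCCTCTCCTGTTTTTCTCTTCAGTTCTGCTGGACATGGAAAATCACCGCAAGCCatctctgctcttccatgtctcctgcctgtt
The alignment files named in the peak headers carry the tag uniq, so a stretch that occurs more than once may yield few usable reads. The part of such stretches in the peak calls was not tested. Btnl2 and Btnl1 both held CAAAGTCC, the core of a motif known for the enterocyte factor HNF4, which 467 promoters of the table held on either strand (1.42%). These letters were searched for after the sequences had been seen, and the stretches below give them in capitals with 20 bases on each side.
Btnl2 (GRCm38.p6 chr17:34354761-34354808, + strand): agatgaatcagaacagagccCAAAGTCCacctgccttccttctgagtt
Btnl1 (GRCm38.p6 chr17:34377084-34377131, + strand): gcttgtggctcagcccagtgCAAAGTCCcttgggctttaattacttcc
These matches describe letters only, and binding of a factor was not measured.

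The window was marked over a longer total length in enterocytes than in any other group. Peaks covered 26879 and 24735 bp of it in enterocytes, against 9618 and 11093 bp in ISC. In the embryo they covered 3024 and 4069 bp at E14.5, against 260 and 537 bp at E12.5. The 4 groups did not overlap. Enterocytes averaged 25807 ± 1516 bp and ISC 10356 ± 1043 bp, and E14.5 epithelium averaged 3546.5 ± 739 bp and E12.5 epithelium 398.5 ± 196 bp (SD, n = 2 each). Depth differed between libraries within each group, and its part in the coverage was not tested.

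**Figure D1:**
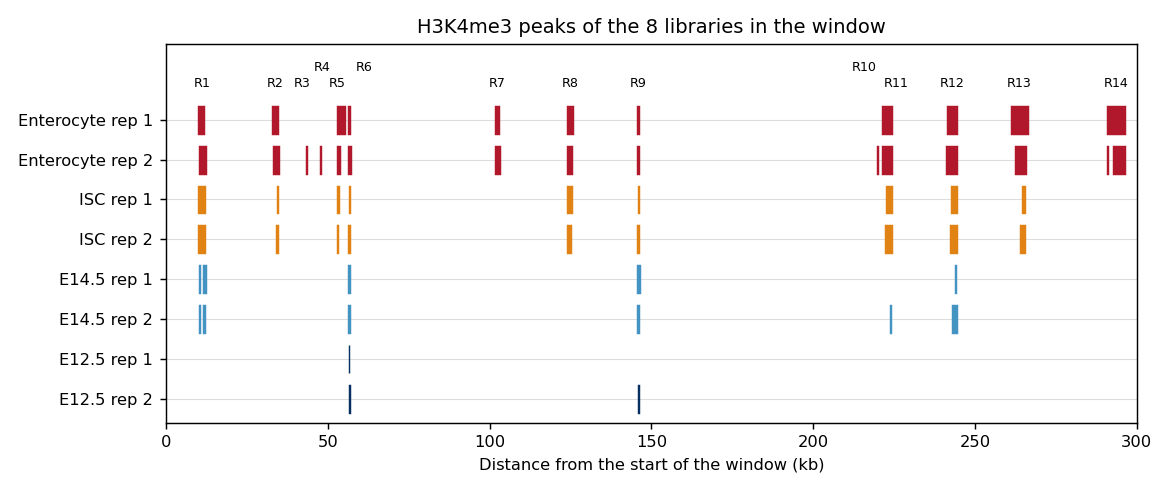
Peaks of the 8 libraries along the window (distance from its start in kb), one row per library, with the merged regions named above. Enterocyte rows carry 11 and 15 peaks, ISC rows 9 each, E14.5 rows 5 and 6, and E12.5 rows 1 and 2.

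Whole lists also differed in length, so the coverage was set against each library's own list. Per 1000000 bp under all peaks of a library, the window held 1727 and 1184 bp in enterocytes, against 612 and 549 bp in ISC. At E14.5 it held 131 and 168 bp, against 22.6 and 37.5 bp at E12.5. The groups again did not overlap. Neighbouring stretches of the same length differed less between the groups. In the stretch above the window, the same measure averaged 680 ± 0.0861 in enterocytes and 724 ± 25.3 in ISC, and 663 ± 13.9 at E14.5 and 699 ± 38.9 at E12.5. In the stretch below, it averaged 1282 ± 79.0 in enterocytes and 1205 ± 63.5 in ISC, and 977 ± 3.5 at E14.5 and 921 ± 28.1 at E12.5. Of the 14 regions in the window 1 was called in every library, against 8 of 11 in the upper flank and 5 of 15 in the lower one. Over all 24352 merged regions, 8903 were called in every library. The window against its flanks is a description without a test, since the window was chosen for its calls.

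**Figure D2:**
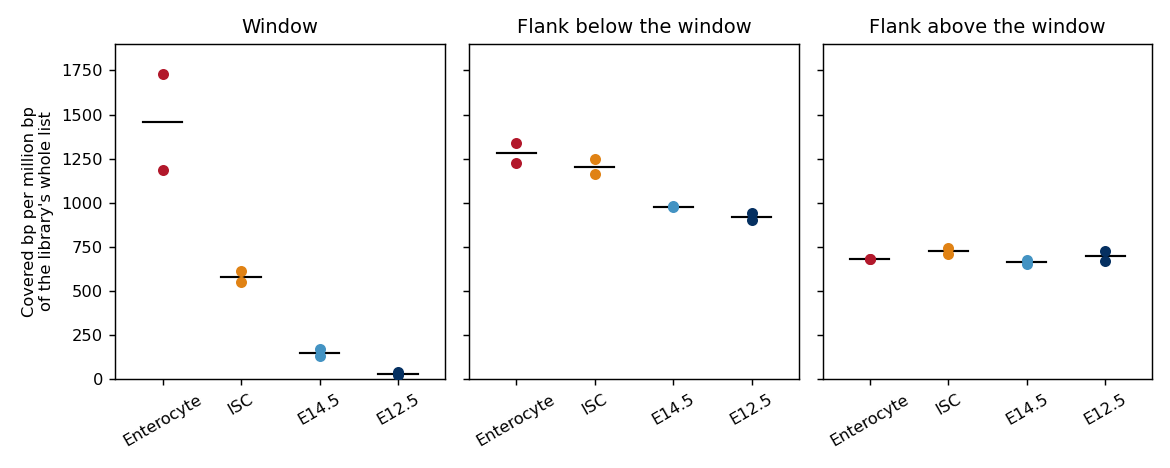
Covered bp per 1000000 bp of the library's whole list (linear axis from 0) in the window and in its flanks of equal length. Points are libraries and bars group means; enterocytes lie at 1727 and 1184 in the window and at 680 on average in the flank above, where the groups lie close together.

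The 14 regions fell into 4 classes, a group counting as holding a region where both of its libraries had a peak in it. Enterocytes held 11 regions and ISC 9, and E14.5 epithelium held 4 and E12.5 epithelium 1. Of the 15 regions in the lower flank, the same groups held 13, 12, 12 and 5, and each held 8 of the 11 in the upper flank. The share of all merged regions held by each group was not computed, and the lists differed in length. Of the 14 regions, 2 were held by enterocytes alone, against 2.57% of all merged regions. A further 5 were held by enterocytes and ISC and by neither embryonic stage (0.932% of all merged regions). Another 4 were held by an embryonic stage (65.1% of all merged regions), and these 4 were all held by both adult groups too. The last 3 (R3, R4 and R10) had a peak in enterocyte replicate 2 only, of 368, 269 and 211 bp. Regions that, like them, were held by no group or by ISC alone made up 31.4% of all merged regions. Regions with a peak in a single library made up 27.4% of all merged regions. These shares are given beside the counts for scale only, because the window was picked with the calls known.

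The class boundaries rested on short peaks. R12 counted as embryonic through a peak of 320 bp in E14.5 replicate 1, and R11 fell outside that class with a peak of 179 bp in E14.5 replicate 2 alone. Regions held by enterocytes alone became 6 without enterocyte replicate 1, since R3, R4, R10 and a split part of R14 then counted. They were also 6 when peaks needed a −log10 q of 10 or more, namely R1, R8, R11, R12, R13 and R14. R7 had no peak left under that limit, and R1 counted although ISC replicate 2 kept its peak there. No region was then shared by enterocytes and ISC alone, and only 2 were embryonic. The nearest regions outside the window lay 47284 bp below it, from 34341327 to 34342716, and 33362 bp above it, from 34723362 to 34725229. The lower one was called in 7 libraries and the upper one in all 8.

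The 2 regions held by enterocytes alone had no peak in any of the other 6 libraries, a pattern found in 369 of all merged regions (1.52%). Regions held by enterocytes without a peak in either ISC library made up 1.72% of all merged regions, and in the window these were the same 2. R14 (chromosome 17, 34680713 to 34686329), at the butyrophilin-like end, was the longest region of the window. It was covered over 5541 and 4278 bp in enterocytes, against 0 and 0 bp in ISC. In enterocyte replicate 1 it was 1 peak, wider than 99.7% of the peaks in its list. In enterocyte replicate 2 it was a peak of 3807 bp and a separate weak one of 471 bp, with an authors' fold enrichment over input of 10.8 and 3.2. R7 (34491756 to 34493239) was shorter, with 1224 and 1426 bp in enterocytes, against 0 and 0 bp in ISC. Its authors' fold enrichment was 4.95 and 5.32 in the enterocyte lists, near the middle of both (percentiles 47.1 and 41.5). By the authors' pileup signal R7 ranked lower, at percentiles 12.6 and 26.6. No peak means only that none passed the caller's threshold, not that the mark was missing.

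**Figure D3:**
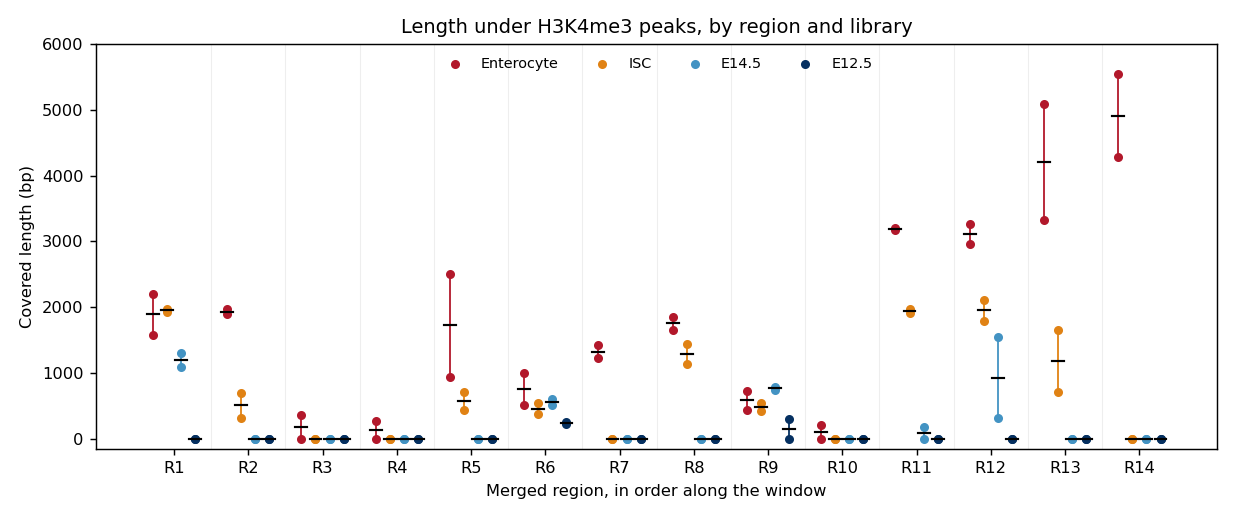
Covered length in bp (linear axis) of the 14 regions in the 8 libraries. Points are libraries, joined within a group, and bars are means of 2; R14 reaches 5541 bp in enterocytes and is at 0 bp elsewhere, and R6 is above 0 bp in every library.

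The 5 regions shared by enterocytes and ISC were R2, R5, R8, R11 and R13, and in each of these 5 both enterocyte libraries were covered over a longer stretch than both ISC libraries. Among all 227 regions of this class in the genome, 47.1% showed that order. The highest ratio of mean lengths among the 5, at 3.76, was that of R2 (34422807 to 34424889), with 1971 and 1891 bp in enterocytes, against 322 and 704 bp in ISC. R13 (34651172 to 34656252) had 5081 and 3324 bp in enterocytes, against 709 and 1659 bp in ISC. In the ISC libraries its peak lay within the part covered in enterocytes. R11 (34611140 to 34614352) was the most even between replicates, with 3204 and 3173 bp in enterocytes, against 1918 and 1969 bp in ISC.

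R5 (34442772 to 34445279) varied widely between the enterocyte replicates. It had 2508 and 941 bp in enterocytes, against 707 and 439 bp in ISC, so that the group means lay closer together than the enterocyte libraries did. R8 (34513897 to 34515881) had 1858 and 1656 bp in enterocytes, against 1441 and 1138 bp in ISC, the smallest ratio of the 5 at 1.36. Apart from the 179 bp of R11 at E14.5, these 5 regions had no peak in any embryonic library. No p-value is given for enterocytes against ISC, since the rule that formed the class used those calls.

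The 4 embryonic regions behaved unlike each other in the adult. R12 (34631171 to 34634479) resembled the shared regions, with 2963 and 3262 bp in enterocytes, against 1796 and 2116 bp in ISC. At E14.5 it had 320 and 1541 bp, against 0 and 0 bp at E12.5. R1 (34400037 to 34402304), at the class II end, had 1574 and 2207 bp in enterocytes, against 1922 and 1981 bp in ISC, and these groups overlapped. At E14.5 it had 1309 and 1094 bp, against 0 and 0 bp at E12.5. In both E14.5 libraries these were 2 separate peaks, of 458 and 851 bp in replicate 1 and of 365 and 729 bp in replicate 2, where each adult library had 1 continuous peak.

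R6 (34446263 to 34447265) was the only region of the window with a peak in all 8 libraries. It had 512 and 1003 bp in enterocytes, against 373 and 541 bp in ISC. At E14.5 it had 601 and 510 bp, against 260 and 233 bp at E12.5. The adult groups overlapped and the embryonic ones did not, but the share of all regions with that order was not computed. Calls over all tested regions leaned to longer at E14.5 (2689, against 329 shorter), and R6 did not pass in that contrast (limma, adjusted p = 0.531). R9 (34535526 to 34536408) was narrow, and in unscaled bp both E14.5 libraries were covered over a longer stretch than any adult library. It had 443 and 726 bp in enterocytes, against 430 and 546 bp in ISC. At E14.5 it had 794 and 745 bp, against 0 and 304 bp at E12.5. Over the 9 regions held by both adult groups, 6 were longer in both enterocyte libraries than in both ISC libraries, against 20.7% of the 10387 such regions in the genome. The 3 others, R1, R6 and R9, were all embryonic regions. With covered bp scaled per library, R6 joined the 6, at 553 and 941 scaled bp in enterocytes, against 396 and 487 scaled bp in ISC. Scaling also undid the order of R9, where E14.5 and enterocytes then overlapped. Its scaled means were 609 ± 36.1 bp at E14.5, 579 ± 143 bp in enterocytes and 474 ± 24.5 bp in ISC (± SD).

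Within its own list, the rank of a peak by fold enrichment differed along the window. The authors' fold enrichment over input was used here only to rank a peak among the peaks of the same library. In enterocytes R11 ranked at percentile 99.0 in replicate 1 and 98.3 in replicate 2, R12 at 97.7 and 90.1, and R13 at 98.0 and 93.2. The wide peak of R14 ranked at 88.6 and 86.9. R8, in the middle of the window, ranked at 91.7 and 70.4. At the class II end, R1 ranked at 57.7 and 68.7, R2 at 19.5 and 44.7, R5 at 25.7 and 44.7, and R6 at 44.2 and 65.0. By pileup, the authors' read depth under a peak, R1 was the highest peak of the window in enterocyte replicate 2, at 56.9, against 45.5 for R11 and 46.8 for R13 in that library. Ranked by pileup, R11 lay nearer the middle of the enterocyte lists, at percentiles 61.7 and 57.6. R12 then ranked at 68.6 and 55.6, and R13 at 67.5 and 59.1. The wide peak of R14 ranked by pileup at 40.8 and 51.8, and R1 at 49.4 and 72.7. By fold enrichment, no peak of the window in the ISC lists ranked above percentile 49.3, which was R1 in replicate 2. In the E14.5 lists the highest rank by fold enrichment was 39.7 (R6, replicate 2), and in the E12.5 lists it was 26.2 (R6, replicate 1). Percentiles of lists of different length are not a measure of change between groups.

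**Figure D4:**
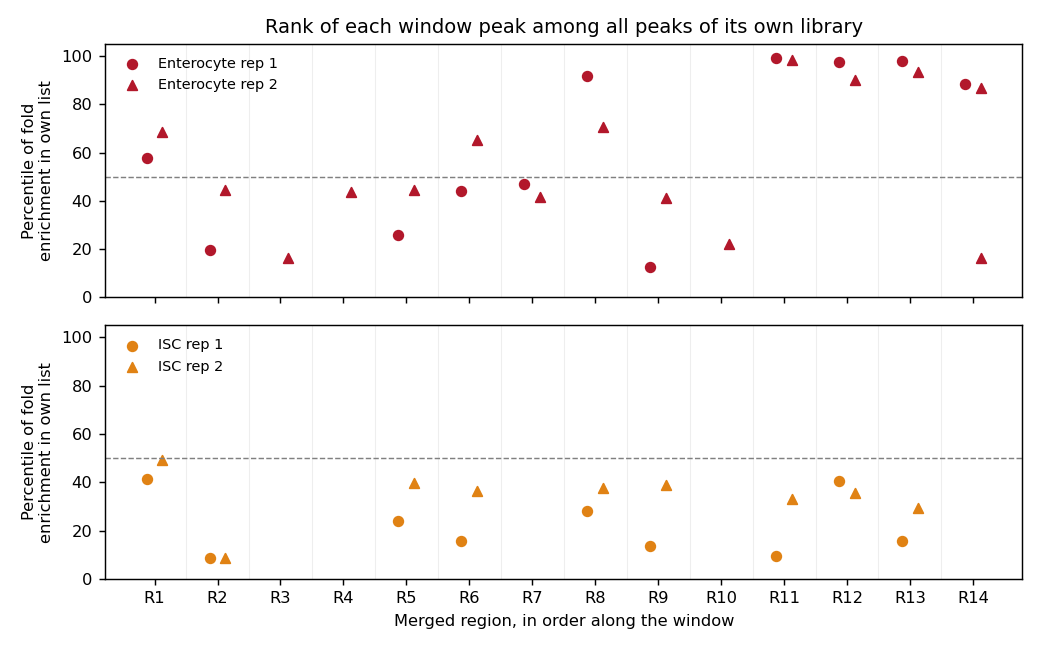
Percentile of each window peak's fold enrichment over input within its own library's list (linear axis, 0 to 100), for enterocytes above and ISC below; circles are replicate 1 and triangles replicate 2. In enterocytes the main peaks of R11 to R14 lie between 86.9 and 99.0, and in ISC all peaks lie at 49.3 or lower.

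The rule did not set E14.5 against E12.5, although being held at either stage made a region embryonic. The window was chosen with the calls known, so the p-values of this contrast are no independent support. Covered lengths of all regions with a peak in at least 2 libraries were compared with limma on log2(covered bp + 200), after scaling each library, with Benjamini-Hochberg adjustment over 17679 regions. Of the 14 regions of the window 11 were tested, and 6 of these had no peak in any embryonic library. R1 was longer at E14.5, where it was covered over 1201.5 ± 152 bp, and had no peak in either E12.5 library (limma, adjusted p = 0.000273). No fold is given against a group at 0 bp. The E14.5 peaks of R1 were weak: in lists of equal number, and when peaks needed a −log10 q of 10 or more, R1 had no covered bp in any embryonic library, so the difference was lost. R12 did not pass (limma, adjusted p = 0.0501), although both E14.5 libraries had a peak and neither E12.5 library did. R9 (limma, adjusted p = 0.158) and R11 (limma, adjusted p = 0.437) did not pass either. R6, with a log2 change of 0.30 ± 0.28 (SE), did not pass (limma, adjusted p = 0.531).

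By limma 1 of 11 tested regions was thus longer at E14.5 (9.09%), beside 15.2% of all tested regions. The 6 regions without an embryonic peak passed the filter through their adult peaks and could not be called, so the 2 shares are not compared. Of the 5 that could be called longer, 1 was. By limma 0 of 11 were shorter, beside 1.86% of all tested regions. Only R6 and R9 had a peak in an E12.5 library. No other region of the window could be called shorter, so these shares are not compared either. At an unadjusted p under 0.05 limma gave 3 longer regions (R1, R9 and R12) and 0 shorter ones. The share of all tested regions at that limit was not computed. Adjusted calls over all tested regions also leaned to longer (2689, against 329 shorter), so the 3 are not read as a trait of the window. The R12 call turned on the settings: its adjusted p was 0.0162 with a pseudocount of 50 bp, 0.0239 without scaling and 0.0115 without E14.5 replicate 1. R9 passed without scaling (0.043) and without E12.5 replicate 2 (0.00798), the only E12.5 library with a peak there. Without scaling, limma called 8098 of all 17679 tested regions longer and 20 shorter, so passing there is no trait of R9 or R12. Where a library is left out, its group keeps 1 library, which is assumed to vary like the other groups. R1 and R12 had 0 bp in both E12.5 libraries and so no spread within that group, and their adjusted p-values may be too small.

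MHC class II genes are also active in leukocytes, and the sort removed CD45+ cells. Leukocyte markers could not be placed in mm9, and the part of other cells in the class II end of the window was not tested. Each group's lists were called against 1 common input, so group and input cannot be told apart.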

How the data were processed

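Each H3K4me3 library has its own deposited peak list. It was made, per the file headers, by broad calling against the group's input (MACS 2.0.10.20130712, q-value cutoff 0.01). Among the tools in the submitters' processing notes are bcl2fastq 1.8.4, Bowtie 1.1.2 and SAMtools 1.2, and the build is mm9. The deposited columns give a width in bp per peak, a pileup signal, a fold enrichment over input (a ratio), and −log10 p and −log10 q values. Minimum −log10 q values of 1.01 to 1.09 show that peaks weaker than the header's cutoff are listed. The 4 input samples were not analysed here.

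Lists were merged wherever peaks overlapped or touched, and the bp under each library's peaks were counted per region, unscaled unless stated. limma 3.58.1 (R 4.3.3) was fitted over all 4 groups with a trended prior (4 residual and 1.52 prior degrees of freedom). Covered bp was scaled by a factor per library, from 0.72 (E12.5 replicate 1) to 1.28 (E14.5 replicate 2), that equalized medians over the 8903 regions called in all 8 libraries. Merging and limma were tested on simulated data. Every region of the window is named, none picked by value. The window, classes and tests were chosen with earlier results of these data known. Titles gave each library's group and replicate. Libraries of a group are biological duplicates per the labels, and p-values measure the spread between these. Alternatives were stronger peaks, lists of equal number, wider peaks, wider merging, a peak in at least 1 library, other pseudocounts, no scaling, a replicate block and each library left out. Promoter identity used global alignment in Biopython 1.88.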

Additional observations from a re-analysis of the deposited data

How the results depend on the processing

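Regions held by enterocytes alone numbered 2 in the full lists and 6 when peaks needed a −log10 q of 10 or more. R7, among the 2, had 0 bp under that limit. Such regions numbered 5 in lists of equal number, 4 among peaks of at least 500 bp and 5 where a peak in 1 library of a group sufficed. The 5 shared regions became 0, the 4 embryonic ones 2 and all 14 regions 9 under that limit on q, and the embryonic ones were also 2 in lists of equal number. With each library left out in turn, there were 2 to 6 regions of enterocytes alone, 4 to 5 shared, 4 to 5 embryonic and 11 to 15 in all. The other class counts, including those with wider merging, stayed within 1.5 times. Under that limit the mean coverage of the window was 20160 bp in enterocytes and 1753.5 bp in ISC. In the embryo it was 1325 bp at E14.5 and 0 bp at E12.5. Lists of equal number gave 8529 bp in ISC but 1024.5 bp at E14.5, scaling gave 2800.0 bp at E14.5, and peaks of at least 500 bp gave 0 bp at E12.5. With 1 library left out the means were 24735 to 26879 bp in enterocytes and 9618 to 11093 bp in ISC. The embryonic means were 3024 to 4069 bp at E14.5 and 260 to 537 bp at E12.5. The order of the 4 groups held in all of these. With all libraries kept, 33 of 224 region and group means moved by 1 SD or more. Those at 0 bp could not move, and those from 1 library's peak could not fall that far. The 6 regions longer in enterocytes than in ISC became 4 under the limit on q (R8, R11, R12 and R13). These 4 then had 0 bp in ISC, so their order compares no lengths.

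For E14.5 against E12.5, limma called 1 region of the window longer, 2 with a pseudocount of 50 bp and 3 without scaling, and 0 shorter throughout. Over all 17679 tested regions it called 2689 longer, 2557 with that pseudocount and 8098 without scaling. The calls without scaling are thus no trait of the window. The adjusted p of R1 by limma was between 6.08e-05 and 0.0021 with other pseudocounts, without scaling or with a replicate block. With each library left out, R1 remained longer at E14.5. All of these fits used the full lists. R1 had 0 bp at both E14.5 and E12.5 in lists of equal number and under the limit on q, so its difference did not hold there. With the replicate number as a block limma again called 1 longer region (R1, adjusted p = 0.00159). The labels do not say that a number marks a shared animal or batch. Deviations of same-numbered libraries correlated at 0.0208 between E14.5 and E12.5 and at 0.311 between enterocytes and ISC, and the other pairs of groups lay between 0.0723 and 0.172. A peak list gives no read counts, so no difference below the caller's threshold can be seen.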
